A study of Mus musculus with 9 samples.

Results

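The genes described here are 9 genes of MHC class II antigen presentation in mouse colonic tissue, chosen by name: the classical chains H2-Aa, H2-Ab1 and H2-Eb1, the invariant chain Cd74, the peptide loading genes H2-DMa and H2-DMb1, their modulators H2-Oa and H2-Ob, and the transactivator Ciita. They are 9 of 55401 entries in the table, and all 9 were among the 14506 genes tested, so none was lost to the filter on low values. RNA was measured by sequencing in 9 libraries, in 3 groups of 3. The labels give the genotype WT for all 9 libraries and give neither strain, age nor sex. The chow group received a chow diet and AOM/DSS, and the high-fat diet group received a high-fat diet and AOM/DSS. AOM/DSS stands in the labels as an abbreviation only; it usually means azoxymethane and dextran sulfate sodium, which together induce inflammation-driven tumours of the mouse colon. The third group received berberine, a plant alkaloid, and its labels name neither a diet nor AOM/DSS. The series title asks about an antitumour effect of berberine. The labels do not say whether the pieces were tumour or other colon, or whether each library came from a separate animal, so p-values measure the spread between these libraries, which may be partly technical. In GRCm38, as the table gives it, 7 of the 9 genes lie within 1 stretch of chromosome 17 that runs from H2-Oa (34092340 to 34095234) to H2-Eb1 (34305867 to 34316674). Cd74 lies on chromosome 18 (60803848 to 60812646) and Ciita on chromosome 16 (10480059 to 10526426).

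MHC class II molecules are heterodimers of an alpha and a beta chain that show peptides from internalised proteins to CD4 T cells. The chains assemble with the invariant chain in the endoplasmic reticulum and travel to endosomes, where proteases degrade the invariant chain, DM exchanges its last fragment for antigen peptides, and DO restrains DM, mainly in B cells. B cells, dendritic cells and macrophages carry class II constitutively or on activation, and intestinal epithelium can be induced to carry it by interferon gamma. Transcription depends on CIITA, which binds no DNA itself and docks on factors already placed on the class II promoters: the RFX complex and CREB on the X box and NF-Y on the Y box.

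The promoter letters are shown as background to this wiring, and a link between them and the measured changes was not tested. RefSeq promoter windows on GRCm38.p6, each 300 bases with 250 before and 50 after the start, were found for 6 of the 9 genes (7 windows, as H2-DMa has more than 1 start). H2-Ab1, Cd74 and Ciita had no entry. The Y box core ATTGG, or CCAAT on the other strand, was present in a window of all 6 genes, against 37.4% of 32851 promoters in the table. An AGNNAC, the core of an X box, followed on the same strand by an ATTGG that started 20 to 36 bases further on was present in 4 of the 6 (H2-Oa, H2-DMb1, H2-Ob and H2-Eb1), against 3.23% of all promoters, both strands searched and with no overlap between the letters of a pair. X boxes with letters other than AGNNAC were not searched for. The lack of a pair in H2-Aa and H2-DMa therefore does not show that an X box is absent. The stretch around the pair, or around ATTGG alone in H2-Aa, is printed 5′ to 3′ on the strand of the gene, with AGNNAC and ATTGG in capitals. The positions are chr17:34092292-34092348 for H2-Oa, chr17:34153086-34153142 for H2-DMb1, chr17:34238807-34238860 for H2-Ob and chr17:34305765-34305820 for H2-Eb1, all on the plus strand, and chr17:34287859-34287917 on the minus strand for H2-Aa.
H2-Oa: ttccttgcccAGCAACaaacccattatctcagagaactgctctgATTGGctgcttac
H2-DMb1: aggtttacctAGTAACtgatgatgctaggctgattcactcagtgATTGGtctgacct
H2-Ob: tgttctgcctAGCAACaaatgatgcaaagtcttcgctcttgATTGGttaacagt
H2-Eb1: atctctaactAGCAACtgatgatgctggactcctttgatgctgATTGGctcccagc
H2-Aa: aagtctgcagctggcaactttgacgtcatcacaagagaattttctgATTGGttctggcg

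In these 5 stretches ATTGG began 43 bases before the start in H2-Oa, 61 in H2-DMb1, 57 in H2-Ob, 59 in H2-Eb1 and 48 in H2-Aa. The distance from the start of AGNNAC to the start of ATTGG was 31 to 34 bases in the 4 pairs. In H2-DMa, 1 of the 2 windows held ATTGG, 198 bases before the start, and neither held the pair. These matches describe letters in a window and were not tested for binding.

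Across all 9 libraries the class II genes formed 3 levels that did not overlap within any group. On the deposited FPKM scale, which corrects for length, Cd74 stood highest in each group, at 425 ± 148 in chow, 194 ± 53.0 in the high-fat diet group and 575 ± 122 in the berberine group (SD, n = 3 each). H2-Eb1, H2-Ab1 and H2-Aa followed in that order by group mean. In chow their FPKM means were 93.3, 86.7 and 62.5, and the ranges of neighbours in this order overlapped in every group. H2-DMa, H2-DMb1, H2-Ob, H2-Oa and Ciita made the lowest level, from 13.5 FPKM for H2-DMa to 4.43 FPKM for Ciita in chow. Each neighbouring pair within this level overlapped in every group, and H2-DMb1 stood above H2-DMa by mean in the berberine group alone. The smallest estimated count behind any class II value was 166, for H2-Oa in high-fat diet replicate 2.

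All 9 class II genes were lower in the high-fat diet group than in chow and higher in the berberine group than in the high-fat diet group. In chow the 9 genes together took 0.144%, 0.119% and 0.244% of all counts in replicates 1, 2 and 3. They took 0.0999%, 0.0698% and 0.0686% in the high-fat diet libraries and 0.275%, 0.205% and 0.169% in the berberine libraries. The high-fat diet libraries lay below all 6 others. From here on, values per library are CPM, counts scaled to a common library size by TMM, a trimmed-mean scaling, in the order of replicates 1, 2 and 3. Fold changes are log2 values from edgeR's quasi-likelihood test over all 9 libraries. The ± beside them is an approximate SE, the size of the fold change over the square root of the test's F statistic. It restates the test and is no separate measure of spread. A gene counts as risen or fallen at an adjusted p under 0.05 (Benjamini-Hochberg, over the 14506 tested genes).

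**Figure D1:**
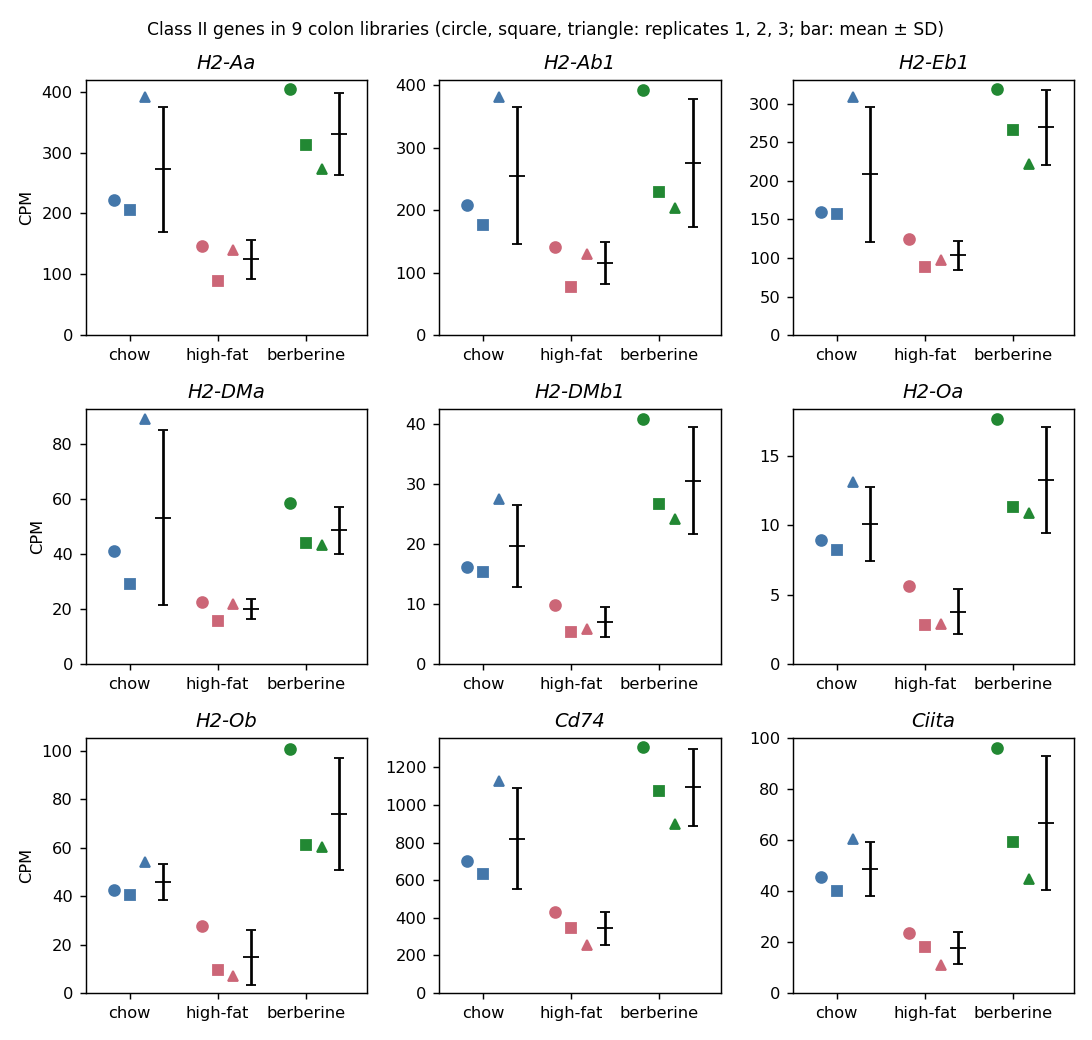
Level of each of the 9 class II genes in CPM (vertical axis, linear from 0, own scale per gene) in the chow, high-fat diet and berberine libraries; the symbol gives the replicate and the bar the mean ± SD (n = 3). In every panel the 3 high-fat diet points lie below the 3 chow and the 3 berberine points, and chow replicate 3, high-fat diet replicate 1 and berberine replicate 1 are the highest of their groups.

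Ciita, the transactivator, was at 45.4, 39.8 and 60.5 CPM in the chow libraries, at 23.6, 18.03 and 11.0 CPM in the high-fat diet libraries and at 96.0, 59.4 and 44.7 CPM in the berberine libraries. The high-fat diet values lay below every other value, while the chow and berberine ranges overlapped. Ciita fell by 1.47 ± 0.35 on the log2 scale in the high-fat diet group against chow (edgeR, adjusted p = 0.0138) and was 1.92 ± 0.35 higher in the berberine group than in the high-fat diet group (adjusted p = 0.00471).

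H2-Aa encodes the alpha chain and H2-Ab1 the beta chain of the I-A molecule. H2-Aa was at 222.6, 204.8 and 391 CPM in chow, 146, 88.2 and 140.3 CPM in the high-fat diet group and 404, 313 and 272 CPM in the berberine group. H2-Ab1 was at 209, 177 and 381 CPM in chow, 141, 76.6 and 129 CPM in the high-fat diet group and 393, 228 and 204 CPM in the berberine group. For both chains the high-fat diet libraries did not overlap with either other group, and chow replicate 3 reached the berberine range. Against chow, H2-Aa fell by 1.13 ± 0.30 (edgeR, adjusted p = 0.0204) and H2-Ab1 fell by 1.14 ± 0.37 (adjusted p = 0.0456). Against the high-fat diet group, the berberine group was 1.40 ± 0.30 higher for H2-Aa (edgeR, adjusted p = 0.00881) and 1.25 ± 0.37 higher for H2-Ab1 (adjusted p = 0.0343). Of the 9 genes, H2-Ab1 had the largest adjusted p in both of these comparisons, and without chow replicate 3 it fell by 0.73. The log2 ratio of H2-Aa to H2-Ab1 in FPKM, which no scaling of libraries can move, averaged -0.45 in chow, -0.44 in the high-fat diet group and -0.26 in the berberine group, with exact two-sided permutation p = 0.8 for high-fat diet against chow, 0.4 for berberine against high-fat diet and 0.3 for berberine against chow. Adjusted by Benjamini-Hochberg over the 6 ratio tests these were 0.8, 0.72 and 0.72, and 3 libraries against 3 cannot go below 0.1.

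H2-Eb1, the beta chain of the I-E molecule, was at 159, 157 and 309 CPM in chow, 125, 88.5 and 97.2 CPM in the high-fat diet group and 319, 266 and 222 CPM in the berberine group. It had the smallest estimated change of the 9 against chow, where it fell by 1.01 ± 0.28 (edgeR, adjusted p = 0.0261), and was 1.38 ± 0.29 higher with berberine than with high-fat diet (adjusted p = 0.00782). Without chow replicate 3, H2-Eb1 fell by 0.60 against chow. Its partner chain is H2-Ea, which RefSeq lists as a transcribed pseudogene on this build. The reference build comes from C57BL/6J, a strain known to carry a promoter deletion in this gene. H2-Ea was nevertheless at 199, 178 and 401 FPKM in chow, 149, 109 and 125 FPKM in the high-fat diet group and 385, 326 and 257 FPKM in the berberine group, above H2-Eb1 in each of the 9 libraries. It fell by 1.14 ± 0.30 in the high-fat diet group against chow (edgeR, adjusted p = 0.0193) and was 1.43 ± 0.30 higher in the berberine group than in the high-fat diet group (adjusted p = 0.00787). Against chow H2-Ea was no longer called when either high-fat diet replicate 2 or replicate 3 was left out. H2-Eb2, a further class II gene, had a log2 fold change of -0.86 ± 0.31 against chow (edgeR, adjusted p = 0.0643) and was not called. It averaged 0.921 FPKM in the high-fat diet group and passed the filter through the other groups. The labels name no strain, and whether H2 alleles other than those of the reference changed the counts of the polymorphic chains was not tested.

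Cd74, the invariant chain that chaperones new class II molecules, was at 701 CPM, 634 CPM and 1126 CPM in the chow libraries. It was at 431, 346 and 254.5 CPM in the high-fat diet libraries and at 1306, 1075 and 897 CPM in the berberine libraries. The highest high-fat diet value lay under the lowest value of each other group. Cd74 fell by 1.26 ± 0.28 against chow (edgeR, adjusted p = 0.0105) and was 1.67 ± 0.28 higher in the berberine group than in the high-fat diet group (adjusted p = 0.00329).

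H2-DMa and H2-DMb1 encode the chains of DM, the endosomal catalyst of peptide exchange. H2-DMa was at 41.2, 29.2 and 89.3 CPM in chow, 22.4, 15.7 and 21.8 CPM in the high-fat diet group and 58.5, 44.1 and 43.4 CPM in the berberine group. H2-DMb1 was at 16.2, 15.3 and 27.5 CPM in chow, 9.87, 5.30 and 5.90 CPM in the high-fat diet group and 40.8, 26.7 and 24.2 CPM in the berberine group. The high-fat diet libraries were the 3 lowest for both genes, and H2-DMa in chow replicate 3 exceeded every berberine value. H2-DMa fell by 1.41 ± 0.38 (edgeR, adjusted p = 0.0221) and H2-DMb1 fell by 1.48 ± 0.34 (adjusted p = 0.012) in the high-fat diet group against chow. Without chow replicate 3, H2-DMa fell by 0.81. The berberine group was 1.28 ± 0.38 above the high-fat diet group for H2-DMa (edgeR, adjusted p = 0.0328) and 2.12 ± 0.35 above it for H2-DMb1 (adjusted p = 0.00285). H2-DMb2, a close copy of H2-DMb1 beside it on the chromosome, fell by 1.24 ± 0.36 (edgeR, adjusted p = 0.0296) and was then 1.91 ± 0.37 higher with berberine (adjusted p = 0.00557). Its call against chow did not hold without chow replicate 3, high-fat diet replicate 2 or high-fat diet replicate 3. How the authors' counting divided reads between the 2 copies is not given in the sources used here, so the separate values of H2-DMb1 and H2-DMb2 are uncertain. Their summed FPKM was 36.7, 27.6 and 62.7 in chow, 25.9, 14.5 and 15.5 in the high-fat diet group and 93.7, 60.3 and 50.0 in the berberine group, again with the high-fat diet libraries lowest.

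H2-Oa and H2-Ob encode the chains of DO, which binds DM and holds back peptide exchange. H2-Oa was at 8.95, 8.24 and 13.1 CPM in chow, 5.66, 2.82 and 2.88 CPM in the high-fat diet group and 17.7, 11.3 and 10.9 CPM in the berberine group. H2-Ob was at 42.3, 40.5 and 54.3 CPM in chow, 27.7, 9.44 and 6.91 CPM in the high-fat diet group and 100.7, 61.0 and 60.2 CPM in the berberine group. H2-Ob was the 1 gene of the 9 whose groups were all apart, with every berberine value above every chow value and every chow value above every high-fat diet value. H2-Oa fell by 1.42 ± 0.36 against chow (edgeR, adjusted p = 0.0172) and was 1.81 ± 0.36 higher with berberine than with high-fat diet (adjusted p = 0.00672). H2-Ob had the largest estimate in both directions, with a fall by 1.64 ± 0.48 (edgeR, adjusted p = 0.0321) and a rise of 2.33 ± 0.50 (adjusted p = 0.0087), with high-fat diet replicate 1 standing far above the other two of its group. Without that library the fall of H2-Ob was by 2.49 and its rise was 3.19.

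The balance of DO to DM, as log2 of summed H2-Oa and H2-Ob over summed H2-DMa and H2-DMb1 in FPKM, was -0.60, -0.40 and -1.12 in chow. It was -0.44, -1.04 and -1.57 in the high-fat diet group and -0.40, -0.57 and -0.51 in the berberine group. The ranges of all 3 groups overlapped, and the differences of -0.31, 0.52 and 0.21 for the 3 comparisons gave exact two-sided permutation p = 0.6 for high-fat diet against chow, 0.3 for berberine against high-fat diet and 0.5 for berberine against chow, each 0.72 after Benjamini-Hochberg adjustment over the 6 ratio tests. The first 2 differences were -0.03 and 0.25 without high-fat diet replicate 3 and -0.60 and 0.81 without high-fat diet replicate 1. Against chow, the first was -0.15 without chow replicate 2 and -0.52 without chow replicate 3, and the third was 0.37 and 0.01. No shift between DO and DM was detectable with 3 libraries a group.

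Against chow, 9 of 9 class II genes fell in the high-fat diet group, where 16.6% of all tested genes fell. Their median log2 fold change was -1.41, against 0.002 over all tested genes, and the range ran from -1.64 to -1.01. The groups did not overlap for any of the 9, which held in the same direction for 22.6% of all tested genes. The count of called genes rested on single libraries: it was 3 without high-fat diet replicate 2, 4 without high-fat diet replicate 3 and 5 without chow replicate 3. It was also 5 when berberine libraries were left out of the fit and 2 by limma on log2(FPKM + 1) without a filter, while no fold change of the 9 turned positive in any of the 20 alternatives. H2-DMb1 was called in all 20 of them, Cd74 and Ciita in 19 each, H2-Aa in 18, H2-Oa in 17, H2-DMa in 14, H2-Ob in 13, H2-Eb1 in 12 and H2-Ab1 in 6.

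In the berberine group against the high-fat diet group, 9 of 9 class II genes rose, where 15.8% of all tested genes rose. The median was 1.67, against -0.007 over all tested genes, and the range ran from 1.25 to 2.33. The groups did not overlap for any of the 9, against 24.8% of all tested genes in that direction. Both comparisons use the same 3 high-fat diet libraries, so the fall and the rise are not separate evidence. Across the 20 alternatives 7 to 9 genes remained called, and the 2 that were lost in some of them were H2-Ab1 and H2-DMa.

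Between the berberine group and chow, 0 of the 9 class II genes were called by edgeR, where 0.0414% of all tested genes were called higher. DESeq2 also called 0 of the 9, and 0 had an unadjusted edgeR p under 0.05; the smallest was 0.0907, for H2-DMb1. The estimates were positive for 8 genes, from 0.11 ± 0.37 for H2-Ab1 to 0.69 ± 0.47 for H2-Ob, and -0.13 ± 0.37 for H2-DMa, with a median of 0.39. That median was 0.13 without berberine replicate 1, 0.25 without chow replicate 2 and 0.65 without chow replicate 3. The groups were apart for 1 gene, H2-Ob, with berberine above chow, a pattern shown by 8.73% of all tested genes. Adjusted p ran from 0.525 to 0.94 (edgeR), which does not show that the groups were alike.

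**Figure D2:**
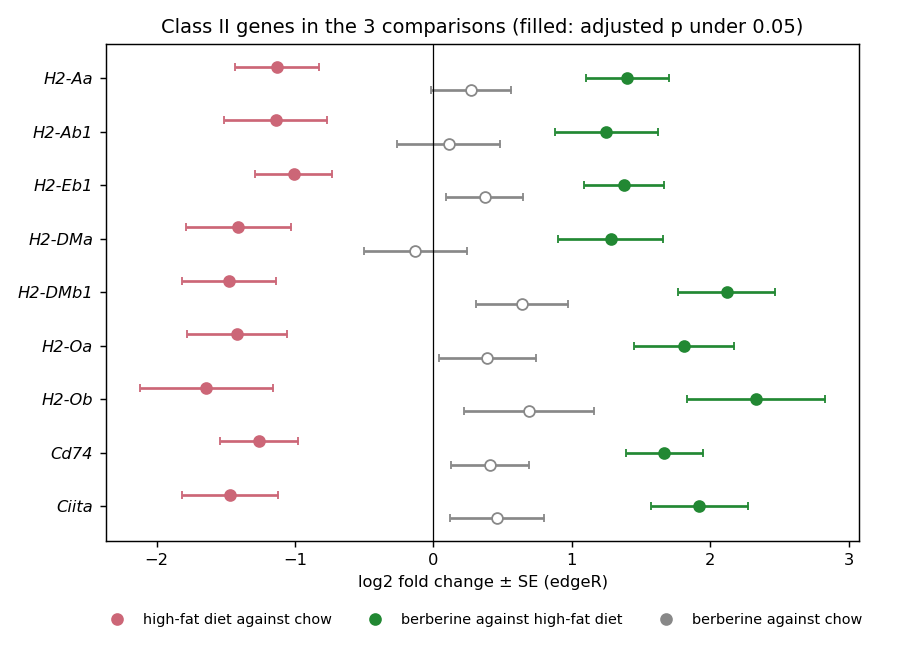
Log2 fold change (horizontal axis) of each class II gene in the 3 comparisons, with bars of 1 approximate SE derived from the edgeR test. Filled points have an adjusted p under 0.05. All 9 points lie between -1.64 and -1.01 for high-fat diet against chow and between 1.25 and 2.33 for berberine against high-fat diet, and the 9 open points for berberine against chow lie between -0.13 and 0.69.

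Libraries of 1 group ranked alike across the class II genes. Chow replicate 3 was the highest chow library and chow replicate 2 the lowest for 9 of 9 genes. High-fat diet replicate 1 was the highest of its group for 9 of 9, and the lowest was replicate 2 for 6 genes and replicate 3 for the other 3. Berberine replicate 1 was the highest and replicate 3 the lowest of their group for 9 of 9. Chow replicate 3 also held a strong striated muscle signal, with 6 marker genes summing to 1373 CPM against 35.3 and 50.8 CPM in the other chow libraries and at most 21.1 CPM elsewhere. Chow replicate 1 was highest for squamous epithelium, at 318 CPM over 6 genes against 6.38 to 146.5 CPM in the other libraries, and berberine replicates 1 and 2 for adipocytes, at 725 and 646 CPM over 5 genes against 22.5 to 149 CPM. Smooth muscle genes differed between groups: 6 of them summed to 7834 to 11450 CPM in chow, to 1279, 1927 and 6049 CPM in high-fat diet replicates 1, 2 and 3, and to 4155 to 5013 CPM in the berberine group. For all 6 the high-fat diet libraries lay below the chow libraries without overlap, as they did for 22.6% of all tested genes. By edgeR 3 of the 6 fell, beside 16.6% of all tested genes. That count was 6 without high-fat diet replicate 3, 2 without high-fat diet replicate 1 and 1 without high-fat diet replicate 2 or chow replicate 1. Against the high-fat diet group 0 of the 6 were called in the berberine group by edgeR or by DESeq2, and 0 had an unadjusted edgeR p under 0.05, but 6 of the 6 rose by edgeR without high-fat diet replicate 3. The part of these tissue differences in the class II values was not tested beyond leaving out each library.

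Some genes outside the list ran closely with the class II mean. Predicted gene models and immunoglobulin or T cell receptor genes were left out of the ranking that follows. By Pearson correlation of log2(CPM + 1) over the 9 libraries with the mean of the 9 class II genes, the 10 closest were Arhgap27os3 (r = 0.996), Rcsd1 (0.992), Carmil2 (0.992), Hvcn1 (0.990), Slamf6 (0.989), Apbb1ip (0.988), Map4k1 (0.988), H2-DMb2 (0.988), Gimap6 (0.988) and Siglecg (0.987). Hvcn1 is a proton channel of B cells and other leukocytes, Slamf6 a lymphocyte receptor, Map4k1 a kinase of blood cells and Siglecg a B cell inhibitory lectin. After removing group means, r of these 10 was 0.942 to 0.993. The 10 were picked for high r in the same 9 libraries, so this is no separate evidence. Among the 9 genes themselves, r with their mean ran from 0.928 for H2-DMa to 0.995 for H2-Oa. That mean includes the gene itself, which raises r, so these values cannot be set against those of outside genes. These are descriptions over libraries that share tissue make-up, with no test.

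Lists of marker and pathway genes were measured in the same libraries, and their counts stand against 16.6% of all tested genes that fell and 15.2% that rose in the high-fat diet group against chow, and 15.8% that rose and 14.9% that fell in the berberine group against the high-fat diet group. Bank1 of the B cell list, Ccl19 of the follicle list, Marchf1 of the endosomal list, Nlrc5 of the class I list and Cd3e, Cd3g and Icos of the CD4 T cell list averaged under 1 FPKM in the high-fat diet group and passed the filter through the other groups. Of 13 B cell genes, 11 fell in the high-fat diet group against chow (median -1.40) and 13 rose in the berberine group against the high-fat diet group (median 2.10), by edgeR. Cd22, an inhibitory coreceptor of the B cell receptor, was at 51.4, 45.99 and 78.6 CPM in chow, 27.6, 21.0 and 17.95 CPM in the high-fat diet group and 106, 53.8 and 51.1 CPM in the berberine group. The summed B cell level was 560.2 to 844 CPM in chow, 199 to 411 CPM in the high-fat diet group and 786 to 1492 CPM in the berberine group, with no marker at 0 in a whole group. The B cell count in high-fat diet against chow also rested on single libraries: it was 2 without high-fat diet replicate 2, 4 without high-fat diet replicate 3 and 4 without chow replicate 3. Fewer cells of a type and less RNA per cell cannot be told apart in these bulk samples.

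Relative to B cell genes the class II genes did not separate the groups in the same way. The summed CPM of the 9 class II genes over that of the 13 B cell genes was 2.54, 2.33 and 2.91 in chow, 2.26, 3.13 and 3.37 in the high-fat diet group and 1.83, 2.17 and 2.26 in the berberine group. The chow and high-fat diet ranges overlapped, and the berberine range lay just below the chow range. Over 9 CD4 T cell genes the ratio was 19.1 to 26.5 in chow, 21.1 to 31.7 in the high-fat diet group and 22.5 to 27.3 in the berberine group, overlapping throughout. Cd4, the coreceptor of these T cells, was at 25.0, 15.1 and 30.5 CPM in chow, 7.63, 8.86 and 8.15 CPM in the high-fat diet group and 34.1, 32.7 and 28.1 CPM in the berberine group. It fell by 1.52 ± 0.25 against chow (edgeR, adjusted p = 0.00267) and was 1.94 ± 0.25 higher in the berberine group than in the high-fat diet group (adjusted p = 0.00095). Lag3 of the same list had estimates of the other sign and was not called. These were 0.71 ± 0.35 (edgeR, adjusted p = 0.161) and -0.30 ± 0.35 (adjusted p = 0.54) in the same order. Of the 6 CD4 T cell genes tested, 4 fell and 5 rose in these comparisons (edgeR), but 2 of the 4 and 3 of the 5 are the genes above that passed the filter through the other groups, so the counts support nothing. Among 7 genes of follicle stroma and germinal centres, 5 fell and 5 rose in the same comparisons (edgeR), beside 16.6% and 15.8% of all tested genes. Both counts include Ccl19, which passed the filter through the other groups, so its calls support nothing. The summed class II level over these 7 genes was 5.71 to 6.25 in chow, 6.36 to 7.78 in the high-fat diet group and 5.26 to 6.38 in the berberine group.

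Of 11 macrophage genes tested, 3 rose and 1 fell in the high-fat diet group against chow (edgeR), where 15.2% and 16.6% of all tested genes did. In the berberine group against the high-fat diet group 2 rose and 1 fell (edgeR), beside 15.8% and 14.9% of all. These counts are near the shares over all genes and are no result about the macrophage list. Csf1r, the receptor for the main macrophage growth factor, was at 43.2, 41.3 and 58.2 CPM in chow and 54.6, 42.1 and 36.4 CPM in the high-fat diet group, with log2 fold change -0.10 ± 0.22 (adjusted p = 0.759). Cd14, a receptor for bacterial lipopolysaccharide, rose by 1.48 ± 0.18 (edgeR, adjusted p = 0.000714). Fcgr1 rose by 1.40 ± 0.34 (edgeR, adjusted p = 0.0155) and C1qb by 0.75 ± 0.23 (adjusted p = 0.0393). Against chow the estimates were above 0 for 8 of the 11 genes and below 0 for 3, with a median of 0.55. Mertk, a receptor for dying cells, fell by 2.29 ± 0.28 (edgeR, adjusted p = 0.000794). The 3 that rose against chow became 1 without chow replicate 1 or 2 and 5 without chow replicate 3, and the 2 that rose with berberine became 1 without high-fat diet replicate 2 or 3 or berberine replicate 2 or 3. The summed class II level over the summed level of the 12 macrophage genes was 1.91 to 2.46 in chow, 0.881 to 1.03 in the high-fat diet group and 1.46 to 2.39 in the berberine group, so here the high-fat diet libraries stood apart below both. Lyz2 alone made up much of the macrophage sum, at 463 of 759 CPM in chow replicate 1, 265 of 651 CPM in high-fat diet replicate 3 and 840 of 1216 CPM in berberine replicate 3. Lyz2 was itself 1.11 ± 0.28 higher in the berberine group than in the high-fat diet group (edgeR, adjusted p = 0.0187). Of 12 dendritic cell genes 4 passed the filter, of which 2 fell and then 2 rose (edgeR), the latter 1 without high-fat diet replicate 2 or 3 or berberine replicate 2.

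**Figure D3:**
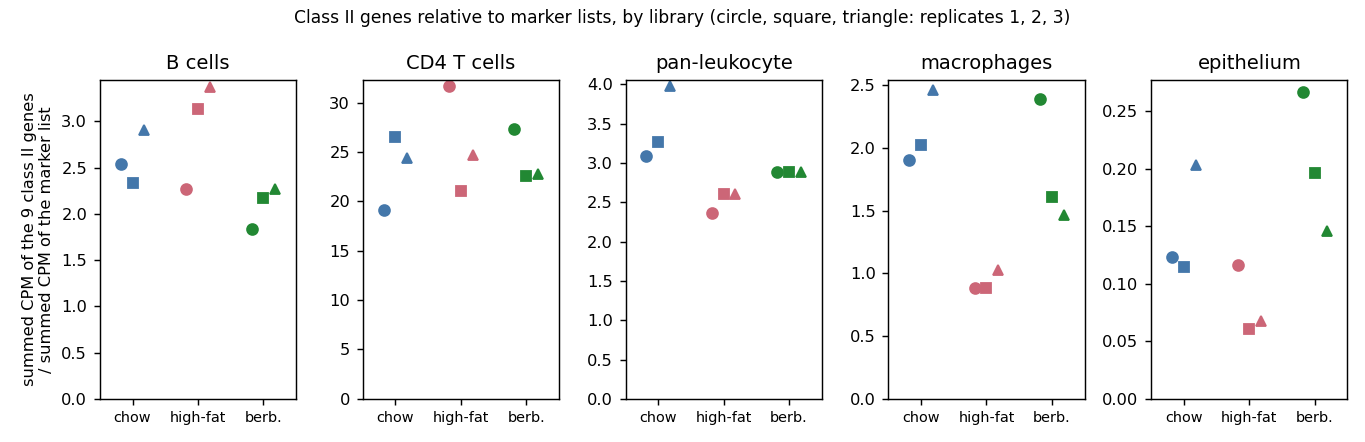
Summed CPM of the 9 class II genes divided by the summed CPM of each marker list (vertical axes from 0, own scale per panel), by library, with the symbol giving the replicate. The chow and high-fat diet points overlap over B cell and CD4 T cell genes, and the high-fat diet points lie lowest, apart from the others, over pan-leukocyte and macrophage genes.

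Over 6 genes of leukocytes in general, including Ptprc, which encodes CD45, the class II ratio was 3.09 to 3.98 in chow, 2.37 to 2.61 in the high-fat diet group and 2.88 to 2.89 in the berberine group. Of these 6 genes 2 fell in the high-fat diet group against chow and 6 rose in the berberine group against the high-fat diet group (edgeR). Over all tested genes 16.6% fell and 15.8% rose in these comparisons. The 2 calls against chow became 0 without chow replicate 1 or 2, high-fat diet replicate 2 or 3 or berberine replicate 2, and 4 without high-fat diet replicate 1. Epithelial genes made up far more of the RNA, with 7 genes summing to 8015 to 12210 CPM over the 9 libraries. Of these 7, 1 rose and 1 fell in each of the same comparisons (edgeR), counts near the shares of 14.9% to 16.6% over all tested genes. The part of cell numbers in the class II differences was not tested.

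Of 7 genes for factors that bind class II promoters, 1 fell and 1 rose in the high-fat diet group against chow (edgeR), beside 16.6% and 15.2% of all tested genes, and both moved back in the berberine group against the high-fat diet group. Rfxank, a subunit of the RFX complex, was at 23.9, 28.3 and 30.9 CPM in chow, 19.7, 17.3 and 19.0 CPM in the high-fat diet group and 27.5, 24.6 and 25.9 CPM in the berberine group. It fell by 0.57 ± 0.14 (edgeR, adjusted p = 0.0152) and was then 0.48 ± 0.14 higher (adjusted p = 0.0314). Nfyb, a subunit of NF-Y, went the other way, at 27.2, 27.1 and 28.6 CPM in chow, 40.8, 43.1 and 42.1 CPM in the high-fat diet group and 23.6, 25.5 and 23.1 CPM in the berberine group. Nfyb was 0.60 ± 0.11 higher in the high-fat diet group than in chow (edgeR, adjusted p = 0.00366) and fell by 0.80 ± 0.11 in the berberine group against the high-fat diet group (adjusted p = 0.00109). The call of Rfxank against chow was lost without high-fat diet replicate 2, and that in the berberine group without any 1 of the 6 libraries compared. Rfx5, Rfxap, Nfya, Nfyc and Creb1 were not called, with estimates of -0.52 to 0.34 against chow.

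Of the interferon gamma pathway, which induces Ciita, 7 of 8 genes were tested, and 2 fell against chow while 3 rose with berberine against high-fat diet (edgeR), beside 16.6% and 15.8% of all tested genes. Ifng itself was at 0 CPM in 4 of the 9 libraries, at 1.03 CPM in berberine replicate 1 and at 0.293 CPM or less in the others, and did not pass the filter. Irf1, a transcription factor induced by interferons, was at 209, 211 and 248 CPM in chow, 101.1, 108 and 107 CPM in the high-fat diet group and 365, 152 and 194 CPM in the berberine group. It fell by 1.08 ± 0.28 (edgeR, adjusted p = 0.02) and was 1.17 ± 0.28 higher with berberine (adjusted p = 0.0152). Jak1, a kinase bound to the receptor, fell by 0.48 ± 0.14 (edgeR, adjusted p = 0.0279) and was 0.73 ± 0.14 higher with berberine (adjusted p = 0.00535). Ifngr1, the ligand-binding receptor chain, had a log2 fold change of -0.87 ± 0.32 against chow (edgeR, adjusted p = 0.0657) and rose by 1.66 ± 0.32 in the berberine group (adjusted p = 0.00606). Over the 7 tested genes the estimates against chow ran from -1.08 to 0.15, with 1 above 0. No other tested gene of the list was called in either comparison. Against chow, 1 call of this pathway remained without chow replicate 1 or 3 or high-fat diet replicate 1, and 0 without high-fat diet replicate 3.

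Among 9 genes that process antigens in endosomes or turn class II over, 3 fell and 2 rose in the high-fat diet group against chow (edgeR). In the berberine group 3 were called higher and 2 lower than in the high-fat diet group (edgeR). Over all tested genes 16.6% fell and 15.2% rose in the first comparison, and 15.8% rose and 14.9% fell in the second. Ctss encodes cathepsin S, the protease that trims the invariant chain in B cells and dendritic cells. It was at 292, 239 and 282.5 CPM in chow, 159.6, 144 and 106 CPM in the high-fat diet group and 260.2, 300.4 and 312 CPM in the berberine group. Ctss fell by 0.99 ± 0.17 (edgeR, adjusted p = 0.00336) and was 1.09 ± 0.17 higher with berberine (adjusted p = 0.00222). Ifi30, a thiol reductase of antigen processing, fell by 0.84 ± 0.13 (edgeR, adjusted p = 0.0022), and Marchf1, a ubiquitin ligase that removes class II from the surface, fell by 1.03 ± 0.31 (adjusted p = 0.0336). The falls of Ctss and Ifi30 were called in all 20 alternatives and that of Marchf1 in 4. Marchf1 also averaged under 1 FPKM in the high-fat diet group, so its calls support nothing. The lysosomal proteases Ctsd and Lgmn went the other way, 0.83 ± 0.20 (edgeR, adjusted p = 0.0139) and 0.51 ± 0.16 (adjusted p = 0.0431) higher in the high-fat diet group. Those 2 calls became 1 without either chow replicate 1 or 3 or high-fat diet replicate 1 or 2.

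Class I presentation genes serve peptides from the cytosol and are expressed in nearly all cells. Of 12 tested, 6 fell in the high-fat diet group against chow (median -0.82) and 8 rose in the berberine group against the high-fat diet group (median 1.0), by edgeR, beside 16.6% and 15.8% of all tested genes. The other genes of the list were not called, among them Pdia3, a disulfide isomerase, with 0.24 ± 0.16 against chow. B2m, the light chain of class I, was at 708, 847 and 1011 CPM in chow, 417, 378 and 297 CPM in the high-fat diet group and 913, 830.0 and 846.5 CPM in the berberine group. It fell by 1.23 ± 0.18 (edgeR, adjusted p = 0.0017). The heavy chains H2-K1 and H2-D1 fell by 0.74 ± 0.16 (edgeR, adjusted p = 0.00945) and by 0.68 ± 0.13 (adjusted p = 0.00592). The class I count against chow was 3 without chow replicate 3, 3 without high-fat diet replicate 1 and 3 with library totals in place of TMM. The class I count in the berberine group was 4 without high-fat diet replicate 1 and 5 without berberine replicate 1. Of 6 costimulatory genes 4 were tested. The call against chow was Icosl alone, the ligand of the T cell receptor ICOS, which fell by 1.20 ± 0.27 (edgeR, adjusted p = 0.011).

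**Figure D4:**
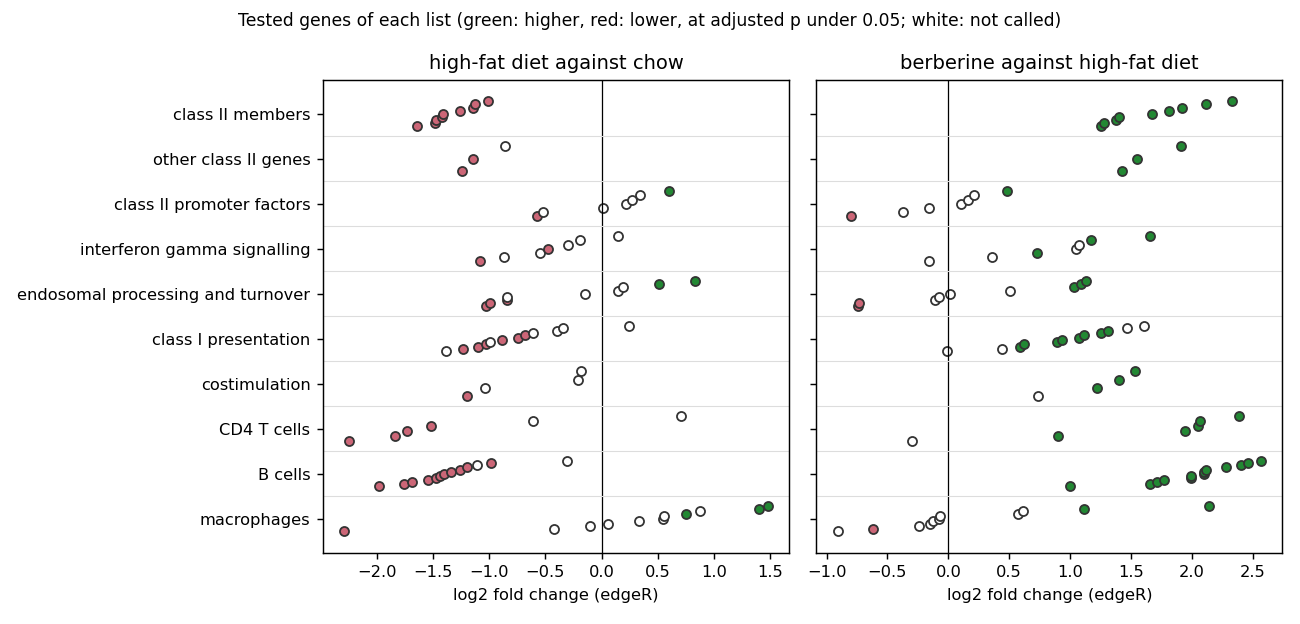
Log2 fold change from edgeR (horizontal axis) of every tested gene of the class II list and 9 related lists, for high-fat diet against chow and for berberine against high-fat diet; colour marks an adjusted p under 0.05. All class II, and most B cell, points are red on the left and green on the right, while promoter factors, endosomal genes and macrophage genes fall on both sides of 0.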

How the data were processed

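Poly(A) RNA of 9 mouse colonic tissue samples was sequenced with strand-marking libraries, per the labels' protocols. The submitters' processing notes name HISAT2 2.0.4, StringTie 1.3.4d, cutadapt 1.9, UMI-tools, edgeR and DESeq2 with the build GRCm38, but not the step each served. The authors deposited 1 table, which per the file headers gives each gene an estimated count and an FPKM in every library. Estimated counts were whole numbers and totalled 51961764 to 69007117 per library; low values piled up at 4, 8 and 12, so 1 fragment may be worth about 4 counts and the counting precision is lower than the counts imply. The deposited FPKM values served for levels between genes and for ratios.

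Tests covered the 14506 genes whose FPKM averaged 1 or more (98.9% of counts), with edgeR 4.0.16 in R 4.3.3: TMM scaling, quasi-likelihood fits, all 9 libraries in 1 model, Benjamini-Hochberg over all tested genes, threshold 0.05. DESeq2 1.42.0, limma 3.58.1 on log2(FPKM + 1) and log2(FPKM + 0.1), other scalings and filters, the 2 compared groups alone, counts divided by 4, a replicate block and each library left out in turn were alternatives. Ratios were tested by exact two-sided permutation. The genes named are all 9 class II genes and the other class II, promoter factor and interferon gamma lists. They also include up to 4 of each other list by smallest p in high-fat diet against chow, and the 10 best correlated genes. Csf1r, Lyz2, Lag3, Pdia3, Lgmn, Tap1, Nlrc5 and the genes named as low in the high-fat diet group fall outside this rule. These were chosen after their values were seen. The class II genes and all lists were chosen with earlier results of these data known. Fits were tested on simulated data of high-fat diet against chow over 14506 genes, where 88% and 86% of 50 genes lowered or raised by 2 on the log2 scale were recovered, and 22% and 34% of 50 lowered or raised by 1. No other genes were changed, and 10 unchanged genes were called. Far fewer genes were changed there than the 4613 called in the data, and the lowest genes were not drawn. The recovered shares therefore need not hold for the data. A gene of the interferon gamma list is not reported here.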

Additional observations from a re-analysis of the deposited data

How the results depend on the processing

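The number of class II genes called in high-fat diet against chow, 9 as reported, was 2 by limma on log2(FPKM + 1) without a filter on low values and 5 with only the 2 groups compared in the fit, and leaving out each library in turn gave 3 to 9. In berberine against high-fat diet it was 7 to 9 when each library was left out, and in berberine against chow it was 0 throughout. With a replicate block, 9, 9 and 0 genes were called. The replicate numbers were not taken as pairs, since deviations of same-numbered libraries from their group means correlated at -0.099 to 0.16, so the block is only an alternative. Signs changed for 4 small estimates: the H2-Aa to H2-Ab1 ratio in high-fat diet against chow ran from -0.03 to 0.06 over the libraries left out. H2-Ab1 in berberine against chow ran from -0.24 to 0.52. H2-DMa in berberine against chow ran from -0.43 to 0.47 over the libraries left out, and was 0.03 by limma on log2(FPKM + 1), 0.04 with log2(FPKM + 0.1) and 0.03 without a filter. The DO to DM ratio in berberine against chow became -0.02 when H2-DMb2, a choice made after seeing the data, was added to DM. The causes were not tested.

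Library totals in place of TMM moved the median of all genes from 0.002 to 0.13 in high-fat diet against chow and from -0.007 to -0.115 in berberine against high-fat diet. Relative to it the class II medians were -1.42 and 1.68, with 7 genes called in each. The share of calls that were higher went from 47.7% to 59.9% and from 51.4% to 41%. Over all genes, berberine against chow gave 7 calls by edgeR and 380 by DESeq2.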

Other observations

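Some interferon-responsive genes were uneven among the berberine libraries. Tap1, a transporter of class I peptides, was at 149 CPM in berberine replicate 1 and at 58.6 and 42.7 CPM in replicates 2 and 3. Nlrc5, the class I transactivator related to Ciita, was at 47.1, 18.9 and 12.6 CPM in the same order. Socs1, a feedback inhibitor of interferon signalling, was at 31.8, 11.3 and 10.8 CPM. In the same libraries Ciita was at 96.0, 59.4 and 44.7 CPM and Cd74 at 1306, 1075 and 897 CPM. Ctss did not share this order, at 260.2, 300.4 and 312 CPM. These genes were picked after their values were seen, and the values stand as a description of 3 libraries.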
